A study of Mus musculus with 42 samples.

Results

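The transcription factor NRF2, encoded by Nfe2l2, its inhibitor Keap1 and 8 antioxidant enzymes were followed in aorta and skeletal muscle of diabetic mice. The enzymes were Hmox1, Nqo1, Gclc, Gclm, Txnrd1, Srxn1, Cat and Sod3. The 10 genes were taken by name, and every array probe annotated with one of these symbols was used, which gave 16 probes of 41174 and 10 genes of 21186. Each of the 42 samples was hybridized to its own single-colour array, with 3 arrays for each of 7 groups in each of 2 tissues. Group G was healthy C57BL/6 mice and group A was KK/Ay mice with spontaneous diabetes. Group C was KK/Ay mice on a high-fat diet with the nitric oxide synthase inhibitor L-NAME in the drinking water (0.2 mg/ml, 8 weeks), a model of diabetic macroangiopathy. Groups B, D, E and F were mice of that same model given SHENQI compound, its yangyinyiqi component, its huoxue component or rosiglitazone by gavage for 8 weeks, while G, A and C received saline. All were males, 18 to 20 weeks old when they entered the study. KK/Ay is a strain of its own, so strain and diabetes cannot be told apart in any comparison with group G, and diet and L-NAME cannot be told apart in group C. Same-numbered aorta and muscle samples were not stated to come from the same mouse, and P values measure the spread between these samples.

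NRF2 is kept low in resting cells because KEAP1 hands it to the proteasome. Oxidants and electrophiles modify KEAP1, and the NRF2 that then accumulates binds antioxidant response elements next to genes for glutathione synthesis, thioredoxin reduction, quinone reduction and haem breakdown. Much of the control acts on NRF2 protein, which an expression array does not measure.

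The probes define what each value is about. Each is 60 bases long, and positions are those of mouse build mm9. The Keap1 probe matched the minus strand of chromosome 9 between 21035292 and 21035732, a stretch of 441 bases, so it lies across a splice junction. A Gclm probe was split in the same way, between 121962174 and 121964809 on the plus strand of chromosome 3. The Sod3 probe matched chr5:52759318-52759377 on the plus strand in 1 piece. These are shown because the largest tissue difference, a gene apart in every aorta and muscle sample, and the single call under a treatment rest on them:
Keap1: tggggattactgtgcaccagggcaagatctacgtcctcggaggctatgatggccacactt
Sod3: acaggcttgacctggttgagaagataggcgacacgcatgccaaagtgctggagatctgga
Gclm: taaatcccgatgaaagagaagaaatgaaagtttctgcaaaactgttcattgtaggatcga
The single Gclc probe matched chr9:77641296-77641355 and the single Nqo1 probe chr8:109912440-109912499. Nfe2l2 and Srxn1 had 3 probes each, Gclm and Hmox1 had 2, and the other 6 genes had 1.

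The core of the antioxidant response element, TGACNNNGC, was searched on both strands of the RefSeq promoters of build GRCm38.p6, from 250 bases before a gene start to 50 after it. Of the 10 genes, 7 had a promoter in that set, with 9 promoters in all because Txnrd1 has 3 starts. The core was found in 4 of the 9, and in 12.4% of all 32851 promoters. The match is shown in capitals with its flanking bases, 5′ to 3′ along the gene, and those of Gclm, Txnrd1 and Srxn1 read on the opposite strand:
Nfe2l2: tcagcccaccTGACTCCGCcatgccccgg
Gclm: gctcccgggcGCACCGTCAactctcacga
Txnrd1: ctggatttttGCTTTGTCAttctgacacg
Srxn1: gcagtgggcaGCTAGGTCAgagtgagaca
These windows lay at chr2:75704885-75704913 (minus strand), chr3:122245413-122245441, chr10:82859104-82859132 and chr2:152105542-152105570 (plus strand), in the order of the lines. The match began 240, 134 and 92 bases before the start in Nfe2l2, Gclm and Txnrd1, and 28 bases after it in Srxn1. These letters were not in the window of Keap1, Nqo1 or Cat. A match is a description of the sequence, not a measured binding site.

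Intensities were quantile normalized over all arrays and are given as log2 values, and a gene with several probes is their mean. Values of different genes are not set against each other. Between 20214 and 30296 probes an array were well above background. All 10 genes passed the filter on dim probes in every comparison. Markers matched the labels in muscle, where 5 fibre genes averaged 16.5 to 17.2. In aorta 5 smooth muscle genes averaged 9.66 to 14.6 with a median of 14.1, against 9.41 to 10.9 in muscle. The aorta samples were mixed, with fibre genes from 7.94 to 15.7, heart muscle genes from 6.51 to 12.5 and brown fat genes from 10.6 to 13.9. Healthy aorta 1 had the lowest smooth muscle level of the aortas (9.66) and the highest lymphocyte level (10.3). Healthy muscle 3 had the highest macrophage level of the muscles (10.04). Rosiglitazone aorta 1 had fibre genes at 14.3, against 9.20 and 9.69 in its group.

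**Figure D1:**
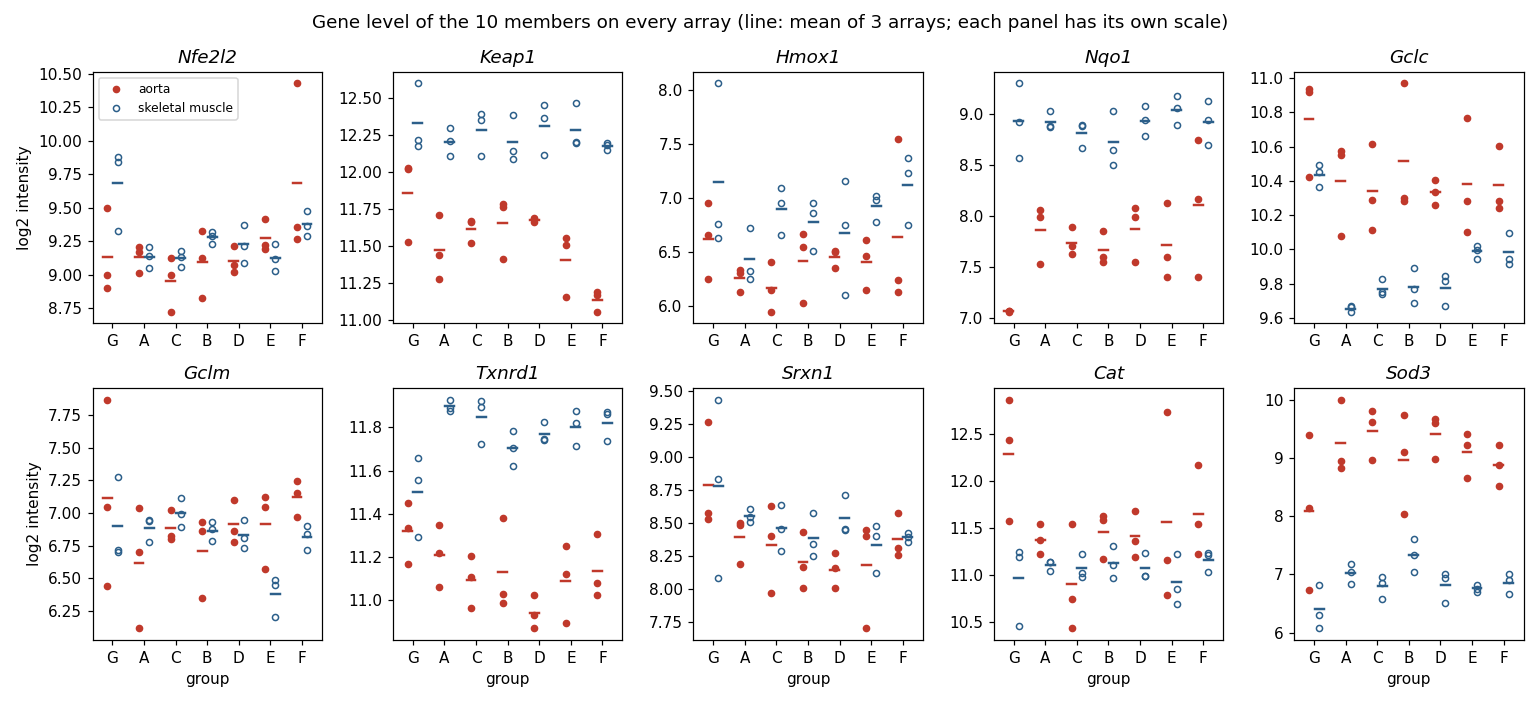
Gene level (log2 intensity) of each of the 10 genes on all 42 arrays. The x axis gives the group letter, filled red points are aorta, open blue points are skeletal muscle, and a line marks the mean of 3 arrays. Keap1 lay lower in aorta than in muscle throughout, Gclc in muscle was highest in group G, and Nqo1 in aorta was lowest in group G.

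The tissues differed in most of these genes. With all groups together, 7 of the 10 differed between aorta and muscle after adjustment, and so did 76.5% of all 16116 genes tested. Sod3, the superoxide dismutase secreted into the extracellular space, ran from 6.72 to 9.996 in aorta with a median of 9.09, and from 6.07 to 7.61 in muscle with a median of 6.85. Healthy aorta 1 was the one aorta inside the range of the muscles. Sod3 was higher in aorta by 2.17 (SE 0.157, adjusted p = 3.9e-15, limma), which is 4.49-fold.
Keap1 ended at 12.03 in its 21 aorta samples and began at 12.09 in its 21 muscle samples, so they did not overlap. The share of all genes without overlap between the tissues is not given here, so this is not a trait particular to Keap1. It was lower in aorta, with a difference of -0.71 (SE 0.0582, adjusted p = 1.22e-13). Nqo1, a quinone reductase, ran from 7.06 to 8.74 in aorta and from 8.50 to 9.30 in muscle, a difference of -1.18 (SE 0.0938, adjusted p = 5.04e-14). Txnrd1, the cytosolic thioredoxin reductase, was lower in aorta, with a difference of -0.63 (SE 0.0518, adjusted p = 1.12e-13). Gclc, the catalytic subunit of the enzyme that commits cysteine to glutathione, was higher in aorta by 0.53 (SE 0.0639, adjusted p = 2.05e-09).
Hmox1, which breaks down haem, was lower in aorta, with a difference of -0.43 (adjusted p = 0.000785). Cat, the peroxisomal enzyme that splits hydrogen peroxide, was higher in aorta by 0.46 (adjusted p = 0.00253), but by only 0.07 with processed signal at the 75th percentile (adjusted p = 0.666). Gclm, the modifier subunit of the glutathione enzyme, differed by 0.09 (SE 0.091) and did not pass. Nfe2l2 differed by -0.08 (SE 0.0796) and did not pass either, though without rosiglitazone aorta 1 it differed by -0.14 (adjusted p = 0.039). With processed signal at the 75th percentile Gclm (0.36, adjusted p = 0.0275) and Nfe2l2 (-0.23, adjusted p = 0.0189) passed. Only slide 4 of 11 held both tissues. With slide as a fixed block Keap1 (-1.03) and Nqo1 (-1.49) still passed, and the others of the 7 did not.

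In healthy mice alone, with 6 arrays, 1 of the 10 genes passed, beside 8.87% of 14138 genes. This was Nqo1, at 7.06, 7.07 and 7.07 in aorta and 8.57, 9.30 and 8.92 in muscle. The aorta values lay close together and far below every muscle value, a difference of -1.86 (SE 0.237, adjusted p = 0.006). Cat was at 11.58, 12.44 and 12.87 in healthy aorta against 11.19, 11.25 and 10.46 in muscle, with no overlap, and its adjusted p was 0.0878. Without healthy aorta 1, Cat and Sod3 passed as well (adjusted p = 0.018 and 0.0157).

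The 3 probes of Srxn1, which encodes sulfiredoxin, the enzyme that restores overoxidized peroxiredoxins, differed between the tissues in opposite directions. Probe A_52_P297032 ran from 10.03 to 11.94 in aorta and from 10.05 to 10.80 in muscle, and Srxn1 taken by this brightest probe was higher in aorta by 0.58 (adjusted p = 1.08e-06). The other two, whose positions on chromosome 2 overlap each other, had medians of 6.84 and 7.31 in aorta and 7.39 and 7.70 in muscle. The mean of the 3 gave -0.15 (SE 0.0829, adjusted p = 0.109), so no tissue difference is stated for Srxn1, although the mean passed under other settings, for example with processed signal (-0.30, adjusted p = 0.0173). Of the Hmox1 probes, A_52_P602559 was well above background on 0 of 42 arrays and is annotated to another transcript than its partner. Every Hmox1 gene value, above and below, averages it in unless the detected probe is named. With the detected probe alone Hmox1 differed by -0.65 between the tissues (adjusted p = 0.00755).

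**Figure D2:**
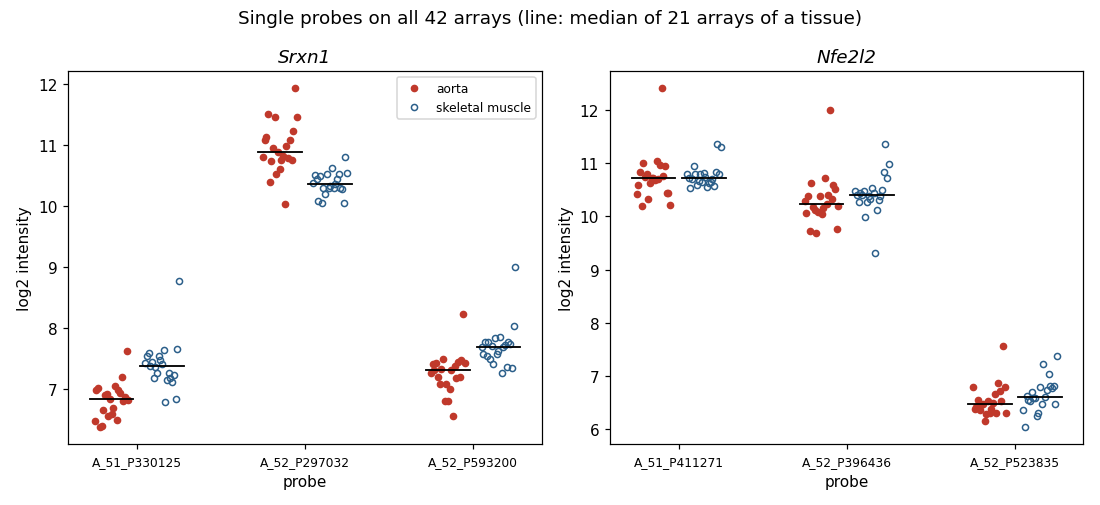
Log2 intensity of the single probes of Srxn1 (left) and Nfe2l2 (right) on all 42 arrays, filled red points for aorta and open blue points for skeletal muscle, with the median of the 21 arrays of a tissue as a line. Srxn1 probe A_52_P297032 was higher in aorta and the other 2 were higher in muscle by their medians, and rosiglitazone aorta 1 stood above the other aortas in 2 of the Nfe2l2 probes, at 12.41 and 11.997.

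The comparison of A vs G asked which genes differ in spontaneous diabetes, and C vs G which differ in the macroangiopathy model. Both share the 6 healthy arrays. Gclc was the gene that was lower in each. In A vs G, 4 of the 10 genes passed an unadjusted p below 0.05, beside 22.1% of 14812 genes, and 1 passed after adjustment, beside 4.49%. In C vs G, 3 passed unadjusted, beside 24.3% of 15737 genes, and 1 after adjustment, beside 5.17%. The median difference of the 10 genes was -0.27 in A vs G and -0.25 in C vs G, against 0.03 over all genes tested in each.

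In healthy muscle Gclc was at 10.36, 10.49 and 10.45. It was at 9.66, 9.67 and 9.63 in the muscle of group A, and at 9.75, 9.74 and 9.82 in that of group C. The healthy values lay clear of the others, and in muscle alone the difference was -0.78 (SE 0.116, adjusted p = 0.0202) for A vs G and -0.67 (SE 0.115, adjusted p = 0.0351) for C vs G. In those fits 4.27% and 3.34% of genes passed. In aorta, Gclc was at 10.93, 10.42 and 10.92 in group G, 10.55, 10.08 and 10.57 in group A, and 10.29, 10.62 and 10.11 in group C. The groups overlapped there, with differences of -0.36 and -0.42 that did not pass. Both tissues together gave -0.57 (SE 0.14, adjusted p = 0.0415) for A vs G and -0.54 (SE 0.125, adjusted p = 0.0309) for C vs G. The difference between the tissues was itself tested and did not pass (adjusted p = 0.844 and 0.756). These calls sat close to the threshold. Without 1 array Gclc passed in 3 of 12 cases in A vs G, with adjusted p up to 0.106, and failed in 8 of 12 cases in C vs G, with adjusted p up to 0.0819. In muscle alone, C vs G also failed with subtraction of the local background, processed signal, the authors' table, no filter and the batch term for slides 1, 3 and 11 (adjusted p from 0.0515 to 0.102), and A vs G with processed signal (0.0592). There, leaving out any array of group A or of group C, or healthy muscle 1 in C vs G, ended the call, with adjusted p from 0.0685 to 0.22.

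**Figure D3:**
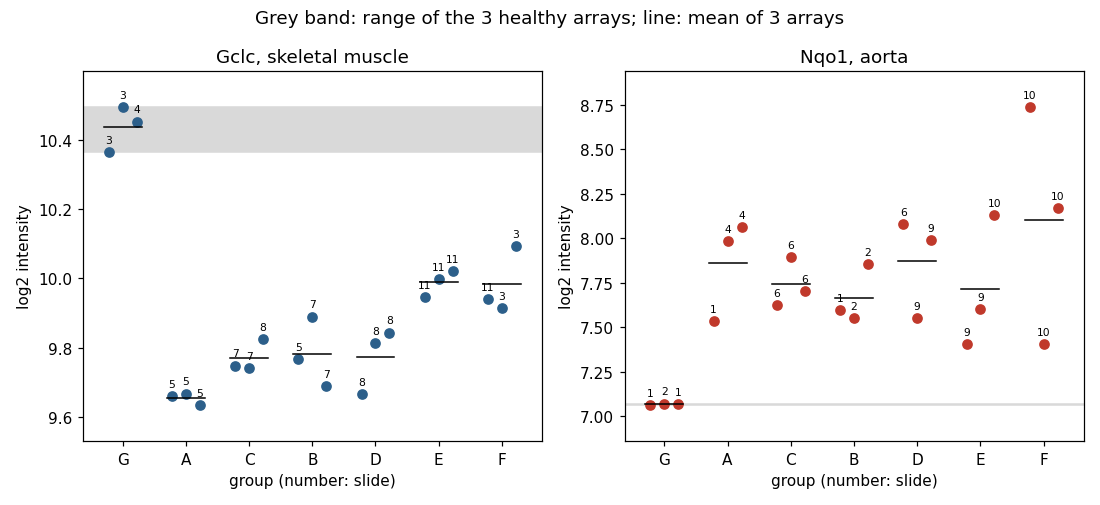
Log2 intensity of Gclc in skeletal muscle (left) and Nqo1 in aorta (right) on every array, by group letter, with the slide number above each point, the group mean as a line and the range of the 3 healthy arrays as a grey band. All 18 KK/Ay arrays lay below the healthy band for Gclc and above it for Nqo1, also where slide 1, 2 or 3 holds arrays of both kinds.

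All 6 KK/Ay groups were then set against group G within each tissue, a comparison added after the values had been seen. In muscle 4 of the 10 genes passed after adjustment, beside 35.8% of 14195 genes, and in aorta 1 passed, beside 14% of 15806 genes. The 18 KK/Ay values of Gclc in muscle ran from 9.63 to 10.09, all below the healthy minimum of 10.36, while 9.23% of genes had no overlap of arrays in muscle. The difference was -0.61 (SE 0.0602, adjusted p = 1.18e-06), a level 1.53-fold lower. It passed without each healthy array and under each of 13 alternative settings, between -0.67 and -0.50. Slide 3 held healthy muscle at 10.36 and 10.49 and rosiglitazone muscle at 9.91 and 10.09, so the gap was also present within a slide. The huoxue and rosiglitazone muscles, all on slides 3 and 11, held the highest KK/Ay values of Gclc (9.91 to 10.09), and with a batch term for slides 1, 3 and 11 the difference was -0.50 (adjusted p = 0.00301). As these are whole tissues, fewer cells of a type and less RNA in each cell cannot be told apart. Gclm differed by -0.10 (SE 0.0994) in muscle and -0.26 (SE 0.224) in aorta, and passed in neither. Its aorta value was -0.59 without healthy aorta 1 and 0.12 without healthy aorta 2, and its muscle value was 0.09 without healthy muscle 3. With the batch term Gclm passed in aorta (-0.67, adjusted p = 0.000369) and in muscle (-0.35, adjusted p = 0.0318).

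Nfe2l2 was lower in KK/Ay muscle too. It was at 9.84, 9.33 and 9.88 in healthy muscle, and at 9.03 to 9.48 with a median of 9.21 in the 18 KK/Ay muscles, of which 15 lay below every healthy value. The difference was -0.47 (SE 0.0922, adjusted p = 8e-04), and it passed without each healthy array and under each of 13 settings. On slide 3 healthy muscle was at 9.84 and 9.33 and rosiglitazone muscle at 9.29 and 9.48, which overlap. In aorta the healthy values were 9.50, 8.997 and 8.91 and the KK/Ay values 8.72 to 10.43, a difference of 0.07 (SE 0.188). That value averages probes that went opposite ways. Probe A_51_P411271 averaged 10.355 in healthy aorta and 10.576 to 11.369 in the KK/Ay groups. The dimmer A_52_P523835 averaged 6.89 in healthy aorta and 6.31 to 6.71 in the KK/Ay groups. A_52_P396436 averaged 10.16 and 9.96 to 10.97. Over 13 settings the aorta difference ran from -0.09 to 0.45 and did not pass. Nfe2l2 in muscle differed by -0.55 in A vs G (adjusted p = 0.14) and by -0.56 in C vs G (adjusted p = 0.133). Macrophage markers ran from 8.92 to 10.04 on the single healthy muscle arrays. For KK/Ay muscle the group means, not single arrays, ran from 8.45 to 8.74. The difference in these markers and their part in the muscle results were not tested.

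Keap1 did not pass in either tissue in the main fit, and in aorta it passed under 5 of 13 other settings. It differed by -0.09 in muscle (SE 0.0975) and by -0.36 in aorta (SE 0.122, adjusted p = 0.0568). Its healthy aorta values were 11.53, 12.02 and 12.03, and the 18 KK/Ay values ran from 11.06 to 11.79. Without healthy aorta 1 the Keap1 difference was -0.53 (adjusted p = 0.0185), and without diabetic aorta 1 it was -0.38 (adjusted p = 0.0378).

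Txnrd1 and Sod3 rose in muscle. Txnrd1 was at 11.29, 11.66 and 11.56 in healthy muscle and at 11.62 to 11.93 in KK/Ay muscle, where 17 of 18 values lay above every healthy one. The difference was 0.31 (SE 0.0713, adjusted p = 0.00296), and it passed without each healthy array. Sod3 was at 6.30, 6.07 and 6.82 in healthy muscle and 6.51 to 7.61 in KK/Ay muscle, a difference of 0.53 (SE 0.143, adjusted p = 0.00788). Sod3 did not pass without healthy muscle 2 (adjusted p = 0.0724) or in the 3 fits of all 42 arrays together. Srxn1 was at 8.08, 8.83 and 9.44 in healthy muscle, with KK/Ay values of 8.12 to 8.71 inside that range. Its difference of -0.34 (adjusted p = 0.126) was -0.01 without healthy muscle 3 and -0.69 without healthy muscle 1 (adjusted p = 0.00101).

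Nqo1 was the aorta gene that passed. Against the healthy values of 7.06, 7.07 and 7.07 the 18 KK/Ay aortas ran from 7.41 to 8.74 with a median of 7.78, all of them higher, while 4.48% of genes had no overlap of arrays in aorta. The difference was 0.76 (SE 0.204, adjusted p = 0.0217), a 1.69-fold higher level. Without healthy aorta 1 or 3 it was 0.76 in each case, with adjusted p of 0.0803 and 0.0717. Within slide 1, healthy aorta was at 7.06 and 7.07, diabetic aorta at 7.53 and SHENQI aorta at 7.60, and within slide 2 healthy aorta was at 7.07 and SHENQI aorta at 7.55 and 7.85. In aorta alone Nqo1 differed by 0.79 in A vs G (SE 0.201, adjusted p = 0.248) and by 0.67 in C vs G (SE 0.141, adjusted p = 0.128). In KK/Ay muscle Nqo1 differed by -0.04 (SE 0.128).

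Cat and Sod3 did not pass in aorta in the main fit, and passed there under 4 and 2 of 13 other settings. Cat was at 11.58, 12.44 and 12.87 in healthy aorta and at 10.44 to 12.74 in KK/Ay aorta, where 13 of 18 values lay below all healthy ones. The difference was -0.90 (SE 0.329, adjusted p = 0.0786), and without huoxue aorta 1, which held the highest KK/Ay value, it was -0.995 (adjusted p = 0.0156). Markers of brown fat were at 11.55, 13.88 and 13.49 on the single healthy aorta arrays. For the 6 KK/Ay groups the group means, not single arrays, ran from 11.29 to 11.74. The difference in these markers and their part in the Cat value were not tested. Sod3 was at 6.72, 9.40 and 8.14 in healthy aorta and at 8.04 to 9.996 in KK/Ay aorta, a difference of 1.09 (SE 0.415, adjusted p = 0.0904). It was 0.41 without healthy aorta 1, which had the lowest smooth muscle markers, and 1.74 without healthy aorta 2 (adjusted p = 0.00987). Srxn1 differed by -0.52 (adjusted p = 0.0609), with 16 of 18 KK/Ay aortas below all healthy ones. Txnrd1 differed by -0.22 (adjusted p = 0.183) and Gclc by -0.37 (adjusted p = 0.163).

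Hmox1 did not pass in the main fit of any of these comparisons with group G. With the batch term for slides 1, 3 and 11 Hmox1 passed in A vs G over both tissues (-0.70, adjusted p = 0.0457 by limma). By its detected probe it was at 8.68, 7.93 and 11.14 in healthy muscle, and at 7.24, 8.39 and 7.19 in diabetic muscle. The high value is healthy muscle 3, which also had the highest Srxn1 and the highest macrophage markers among the muscles, whose part was not tested. Over both tissues A vs G gave -0.54 with both Hmox1 probes (SE 0.236, adjusted p = 0.206) and -1.18 with the detected probe alone (adjusted p = 0.178). The 6 KK/Ay groups together differed by -0.35 in muscle (adjusted p = 0.27) and by 0.11 without healthy muscle 3.

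**Figure D4:**
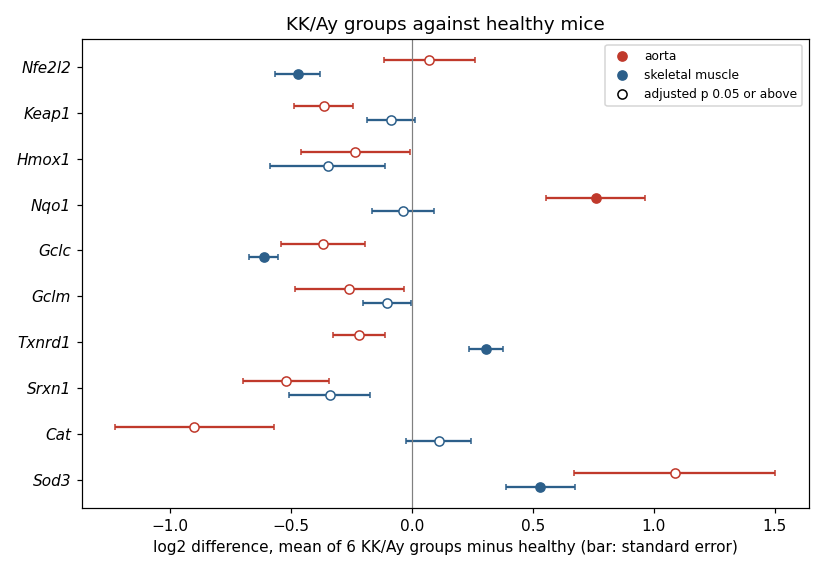
Mean of the 6 KK/Ay groups minus the healthy group for each of the 10 genes (log2), in aorta (red) and skeletal muscle (blue), with the standard error as a bar. Filled points passed an adjusted p below 0.05: Nfe2l2, Gclc, Txnrd1 and Sod3 in muscle and Nqo1 in aorta.

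The comparison of C vs A asked what diet and L-NAME add to diabetes. None of the 10 genes passed, with 0 at an unadjusted p below 0.05 by limma, beside 5.12% of 15718 genes, and 0 after adjustment, beside 0%. The differences ran from -0.25 for Cat (SE 0.167) to 0.19 for Hmox1 (SE 0.139). For Nfe2l2 the 95% interval was -0.28 to 0.08 and for Gclc -0.21 to 0.26. In muscle alone Hmox1 differed by 0.47 at an unadjusted p of 0.0211 by limma (adjusted p = 0.638), a value that averages in its undetected probe. Its detected probe was at 8.62, 9.68 and 8.11 in group C muscle, with a mean of 8.80 against 7.60 in group A muscle.

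Each treated group was compared with group C to ask which genes a treatment changes, and all 4 comparisons share its arrays. Over both tissues 0 of the 10 genes passed after adjustment by limma for any treatment, beside 0% of genes for SHENQI compound, yangyinyiqi and huoxue and 0.00632% for rosiglitazone. At an unadjusted p below 0.05 the count was 0 for SHENQI compound (2.72% of 15642 genes), 0 for yangyinyiqi (3.41% of 15876), 0 for huoxue (14.3% of 15720) and 2 for rosiglitazone (12% of 15825). For SHENQI compound the differences ran from -0.15 for Gclm to 0.30 for Cat (SE 0.183), and the 95% interval of Nfe2l2 was -0.06 to 0.36. For yangyinyiqi they ran from -0.11 for Txnrd1 to 0.25 for Cat, with -0.05 to 0.30 for Nfe2l2. An interval that includes 0 does not show that a treatment left the gene as it was.

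The genes at an unadjusted p below 0.05 for rosiglitazone, an agonist of PPAR-gamma, were Nfe2l2 and Keap1. Nfe2l2 was at 10.43, 9.27 and 9.35 in rosiglitazone aorta against 9.13, 8.72 and 9.001 in group C. In muscle it was at 9.37, 9.29 and 9.48 against 9.06, 9.18 and 9.14. Treated gene values lay above those of group C within each tissue, and the difference was 0.49 (SE 0.186, unadjusted p = 0.0215 by limma, adjusted p = 0.33). The muscle probes were not alike. Probe A_51_P411271 averaged 10.695 in treated muscle and 10.685 in group C. A_52_P396436 averaged 10.57 and 10.21, and the dimmer A_52_P523835 averaged 6.88 and 6.47. The highest Nfe2l2 gene value belonged to rosiglitazone aorta 1, where 2 Nfe2l2 probes reached 12.41 and 11.997. That sample also had Hmox1 at 9.81 by its detected probe, against 7.503 and 7.52 in its group, and Nqo1 at 8.74, against 7.41 and 8.17. All 5 of its 5 fibre markers were well above background, and its lymphocyte genes averaged 8.78 against 7.38 and 7.21, and their part in its Nfe2l2 value was not tested. Without it Nfe2l2 differed by 0.30 over both tissues (adjusted p = 0.178) and by 0.36 in aorta.
Keap1 was at 11.17, 11.19 and 11.05 in rosiglitazone aorta, below the 11.52, 11.66 and 11.67 of group C. In muscle it was at 12.19, 12.15 and 12.20 against 12.35, 12.11 and 12.39. The groups were apart in aorta and overlapped in muscle, and over both tissues the difference was -0.29 (SE 0.0878, unadjusted p = 0.00626 by limma, adjusted p = 0.221). All 3 rosiglitazone aortas lay on slide 10 with huoxue aorta 3, where Keap1 was at 11.15, while the huoxue aortas on slide 9 were at 11.51 and 11.55. Slide and rosiglitazone cannot be told apart in aorta, nor in muscle, where groups F and C shared no slide either. Among the NRF2 targets, Gclc differed by 0.12, Gclm by 0.03, Txnrd1 by 0.01, Srxn1 by -0.01, Nqo1 by 0.24 and Hmox1 by 0.35, and none of them passed at either threshold. Without rosiglitazone aorta 1, Nqo1 differed by 0.08 and Hmox1 by 0.13.

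In huoxue muscle 32.2% of 13427 genes passed after adjustment against group C, and Gclm was the 1 of the 10 genes among them. Gclm was at 6.45, 6.49 and 6.21 in huoxue muscle and at 6.99, 6.90 and 7.11 in group C muscle, with no overlap, a difference of -0.62 (SE 0.103, adjusted p = 0.00521). The probes of Gclm did not move together. Probe A_51_P320089, whose sequence is given above, averaged 7.55 in group C and 6.395 in huoxue muscle, while A_52_P669425 averaged 6.45 and 6.37. Each was well above background on 1 of 3 huoxue muscle arrays, so the call rests on 1 probe that is dim in the treated group. All 3 huoxue muscles lay on slide 11. The rosiglitazone muscle on that slide was at 6.72, and those on slide 3 at 6.90 and 6.84. With a batch term for slides 1, 3 and 11, added after the values were seen, the sign turned, to 0.13. The call was also lost in the fits of all 42 arrays with 14 means (adjusted p = 0.115) and with slide as a random block (adjusted p = 0.189). In rosiglitazone muscle Gclm passed by its brightest probe (-0.45, adjusted p = 0.0455) and not by the mean of both. Over 13 settings the Gclm difference there ran from -0.46 to 0.57, and no slide was shared with group C muscle. Gclc in huoxue muscle was at 9.95, 9.997 and 10.02, all above group C, with a difference of 0.22 (SE 0.0718, adjusted p = 0.0526). It passed under 6 of 13 other settings, for example with an offset of 50 (adjusted p = 0.0211). Over these settings the Gclc difference ran from -0.13 to 0.38, so its sign was not stable. With 1 array left out it passed in 0 of 6 limma fits (adjusted p = 0.0703 to 0.141).

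SHENQI compound was set against rosiglitazone directly (B vs F). Keap1 reached an unadjusted p below 0.05, so 1 of 10 genes stood beside 5.49% of 15531 genes, and 0 passed after adjustment by limma, beside 0%. Keap1 differed by 0.27 (SE 0.116, unadjusted p = 0.0378 by limma, adjusted p = 0.874), with 11.76, 11.41 and 11.79 in SHENQI aorta. Nfe2l2 differed by -0.34 (SE 0.193), with a 95% interval from -0.77 to 0.08, and by -0.15 without rosiglitazone aorta 1. In muscle Sod3 was at 7.03, 7.34 and 7.61 in group B and at 6.9996, 6.90 and 6.66 in group F, with all of B above all of F and a difference of 0.47 (adjusted p = 0.115). The same Sod3 values stood 0.53 above group C (SE 0.163, adjusted p = 1).

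**Figure D5:**
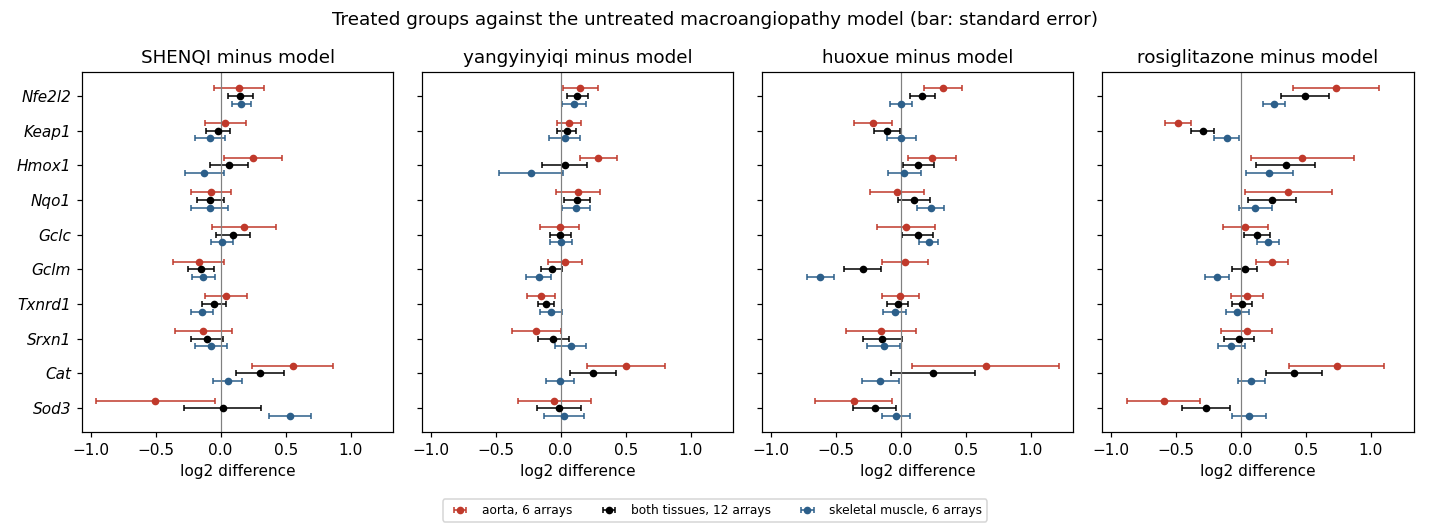
Difference between each treated group and the untreated macroangiopathy model for the 10 genes (log2), in aorta (red, 6 arrays), both tissues (black, 12 arrays) and skeletal muscle (blue, 6 arrays), with standard errors. In aorta the rosiglitazone group differed by 0.73 for Nfe2l2 (0.36 without its first aorta sample), 0.74 for Cat and -0.48 for Keap1, and none of these passed. In muscle the huoxue group differed by -0.62 for Gclm, which became 0.13 with a batch term for slides 1, 3 and 11. Treatment and slide cannot be told apart in these comparisons.

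Other genes of the pathway were followed as 9 lists with 116 genes, of which 115 were on the array and 105 were tested in A vs G. After adjustment 3 rose and 6 fell in A vs G, and the counts were likewise 3 and 6 in C vs G, beside 4.49% and 5.17% of all genes. The median differences of the listed genes were -0.06 and -0.09, against 0.03 over all genes in each. In A vs G the risers were Nnt (1.66, SE 0.135, adjusted p = 5.29e-05), the mitochondrial transhydrogenase that makes NADPH, Glrx (0.99, adjusted p = 0.0446), a glutaredoxin, and Prdx2 (0.72, adjusted p = 0.0178), a peroxiredoxin. C57BL/6J mice are known to carry a deletion in Nnt, and the healthy mice are called C57BL/6J in a legend of the study and C57BL/6 in its methods and labels. The largest falls were those of Mgst2 (-1.36), a microsomal glutathione transferase, G6pdx (-1.16), the entry enzyme of the pentose phosphate pathway, and Xdh (-1.10), which encodes xanthine oxidoreductase.
The risers of C vs G were Nnt (1.24), Slc6a9 (1.11), a glycine transporter, and Prdx2 (0.61). Pgd (-1.67), a later enzyme of the pentose phosphate pathway, Chac1 (-1.56), which degrades glutathione, and G6pdx (-1.28) fell most. Of 14 NRF2 partners, competitors and turnover factors, such as Bach1 and Cul3, 0 passed after adjustment by limma in either comparison, and 2 were higher and 2 lower at an unadjusted p below 0.05 in each, beside 22.1% and 24.3% of all genes. Of 10 genes of glutathione supply and recycling 0 passed in A vs G and 1, Chac1, passed in C vs G. Over both tissues 0 of the listed genes passed after adjustment by limma in C vs A or in the 5 comparisons among treatments. Between 1 and 18 of them had an unadjusted p below 0.05, beside 2.72% to 14.3% of all genes tested. In healthy mice 8 of the genes were higher and 7 lower in aorta than in muscle, beside 8.87% of all genes that passed after adjustment. They were led by G6pdx (3.30), Pgd (3.13) and Mgst1 (1.91) and by Chac1 (-4.82), Mgst3 (-2.36) and Nnt (-2.02).

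The 10 genes did not form one pattern across the arrays. After the mean of each tissue was subtracted, the pairwise correlations over 42 arrays ran from -0.45 for Keap1 with Nqo1 to 0.58 for Nfe2l2 with Hmox1, and Gclm with Srxn1 had 0.54. The Hmox1 value here includes its undetected probe, and rosiglitazone aorta 1 was the highest aorta for both Nfe2l2 and Hmox1. The genes most like Nfe2l2 among 16115 compared were Ggh (r = 0.811), which encodes a lysosomal folate hydrolase, Ehf (0.792), an epithelial ETS factor, and Ada (0.789), adenosine deaminase. Without rosiglitazone aorta 1 these were 0.605, 0.598 and 0.552. The points share slides and cell mixtures, and the values are a description only.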

How the data were processed

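Total RNA was hybridized by the authors to Agilent mouse arrays on 11 slides. The deposited scanner output, made with Agilent Feature Extraction 10.7.3.1, lists for each array the intensity of 45018 spots, of which 1639 are controls. A deposited table by the authors, on the log2 scale, served as an alternative. Median spot intensity was corrected with normexp (limma 3.58.1, R 4.3.3, offset 0), quantile normalized over the 42 arrays without control spots and put on the log2 scale. Irregular spots were masked, and spots of a probe and probes of a symbol were averaged. Gene symbols come from 8 files that carry them, joined by probe. Genes were tested if, in 1 or more of the sets compared, every array had the probe well above background. Comparisons were fitted with lmFit and eBayes across all genes, with tissue as a term on 12 arrays, in each tissue alone, and with an interaction, and P values were adjusted by Benjamini-Hochberg over all genes tested (threshold 0.05). The fit was tested on simulated data. Precision is limited by 3 arrays per group and tissue. Samples were grouped from the labels. In no comparison of groups within a tissue did every same-numbered pair correlate above 0.1, though single pairs ranged from -0.5 to 0.6. Between aorta and muscle of a group 3 of 21 pairs correlated above 0.1 (-0.36 to 0.21). The numbers were therefore not used as pairs. Names were limited by rule to the 10 genes, to at most 3 rising and 3 falling genes of the wider lists, and to the 3 genes most like Nfe2l2. The members and lists were chosen with earlier results of these data known. The comparison of 6 KK/Ay groups with healthy mice was added after values were seen. Shares of all genes without overlap of arrays are given for that comparison only, and a lack of overlap elsewhere describes the values. Alternatives were normexp with an offset of 50, background subtraction, processed signal at the 75th percentile, quantile normalization within tissue, the authors' table, filters, the brightest probe, no tissue term, all 42 arrays, slide and replicate blocks, eBayes options and each array left out. Figures were drawn with matplotlib 3.10.9.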

Additional observations from a re-analysis of the deposited data

How the results depend on the processing

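Over both tissues, in C vs A, in B, D, E and F vs C and in B vs F, 0 of the 10 genes passed under every setting tried and without any array. In A vs G the count of 1 became 0 with subtraction of the local background, with processed signal at the 75th percentile, with the authors' table, without a filter, without a tissue term and with the replicate block, 2 in the fits of all 42 arrays with 14 means and with slide as a random block, and 5 with a batch term for slides 1, 3 and 11. In C vs G the count of 1 became 0 without a tissue term and with the replicate block, and 2 in the fit of all 42 arrays and with the batch term. With the batch term these 2 were Gclm (-0.57, adjusted p = 0.00313 by limma) and Srxn1 (-0.66, adjusted p = 0.0151). Gclc did not pass in that fit (-0.31, adjusted p = 0.102). With the replicate block, the adjusted p of Gclc was 0.0627 and 0.138, and in muscle alone 0.122 and 0.159. In healthy aorta against muscle the count of 1 became 5, 4 and 5 in the fits of all 42 arrays with 14 means, with slide as a random block and with the batch term. Over all groups 7 became 2 with slide as a fixed block, and the count was 9 at most. For KK/Ay aorta against healthy, 1 became 2 with an offset of 50 and with the brightest probe, 3 with processed signal, 6 in the fit of all 42 arrays, 5 with random slide and 5 with the batch term. Leaving out each array gave 0 to 1 in A vs G and in C vs G, 1 to 3 and 7 to 8 between tissues, and 0 to 2 and 3 to 5 in KK/Ay aorta and muscle. Gclm in huoxue muscle reversed to 0.13 with the batch term. Gclc there passed under 6 of 13 settings, with values from -0.13 to 0.38. Calls of wider-list genes in A vs G (9) ranged from 3 without a tissue term to 25 in the fit of all 42 arrays, and in C vs G (9) from 1 with the replicate block to 25. Processed signal moved the median of all genes by up to 0.167 (A vs G, muscle). The cause of these changes was not tested. With slide as a fixed block most comparisons could not be fitted, since groups lay on slides of their own, and Gclc in A vs G was then -0.38 (adjusted p = 0.406). The gene that passed in that A vs G fit was Sod3 instead (2.56, adjusted p = 0.0496 by limma). In KK/Ay muscle Gclc, Nfe2l2 and Txnrd1 passed under all 13 settings.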
